A study of Danio rerio with 6 samples.

Results

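The 10 genes described here encode parts of the death receptor branch of programmed cell death: the TNF ligand genes *tnfa* and *tnfb*, the receptor genes *tnfrsf1a*, *tnfrsf1b* and *fas*, the adaptor gene *fadd*, the RIP kinase gene *ripk1l*, the initiator caspase gene *casp8*, its inhibitor-like relative *cflara*, and the executioner caspase gene *casp3a*. They were chosen by name from the 31953 genes of the deposited table, and each name matched 1 row. RNA was sequenced from whole zebrafish embryos at 30 hours post-fertilisation (hpf) in 6 libraries. The mock control group and the *dancr* del F0 crispant group had 3 each. The crispants had been injected at the single cell stage with Cas9 complexes carrying a pool of guides against the promoter of the lncRNA gene *dancr*, and the mock control embryos with a mixture that lacked the *dancr* targeting crRNA. The comparison asks which genes differ after deletion of the *dancr* promoter. In the study's RT-qPCR this deletion lowered *dancr* and also *snora26* and *snora27*, the snoRNA genes inside it. Transcription of the last exon was not reduced. Loss of the lncRNA, loss of the snoRNAs and cutting of DNA by guided Cas9 cannot be told apart in this comparison. The default strain of the study was AB, a wild type line. The deletions of F0 crispants are mosaic, each group pooled about 30 embryos, and crispant embryos of Class I and II were taken, those with the most severe visible defects, so that the deletion and the selection by phenotype cannot be told apart in this comparison.

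In the extrinsic pathway a ligand of the TNF family binds a receptor with an intracellular death domain, and adaptor proteins recruit Caspase-8 into a complex in which it activates itself. Active Caspase-8 cleaves executioner caspases such as Caspase-3, and the protein encoded by *CFLAR* in mammals, which lacks protease activity of its own, holds Caspase-8 in check. In mammals, when Caspase-8 is blocked, RIPK1 can instead engage RIPK3 and drive necroptosis, a lytic form of cell death, and TNFR1 can also signal for survival through NF-kB. The mRNA level of these genes is not a measure of their activity, since caspases are switched on by cleavage of the protein.

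Between 33841805 and 40515803 reads were counted on genes per library. Mock control replicate 3 stood apart, with a TMM factor (edgeR's library scaling) of 0.749 against 0.988 to 1.14 in the other 5 libraries, and with 33.4% of its counts in its 100 most counted genes against 24.2% to 26.9%. Over the 20812 tested genes, its deviation from the mean of the other libraries fell with gene length (Spearman's rho = -0.34 across genes, which are not independent replicates; -0.08 to 0.32 in the other libraries). The targeted locus was followed through *snora26*, a snoRNA gene inside *dancr*, which had 22, 8 and 16 counts in mock control embryos and 0, 7 and 4 in crispants (p = 0.1 in an exact permutation test, two-sided, the lower limit for 3 libraries against 3). In the edgeR test described below its adjusted p was 0.881. Of the rows at this locus the one with the most counts was used. Another row named *snora26* had 0 counts in all 6 libraries. The second snoRNA gene of the locus, *snora27*, had 1 count in crispant replicate 1 and 0 in the other 5 libraries. The libraries were polyA selected and these counts are few, so that they are a weak check of the deletion and no measure of snoRNA levels. The spliced *dancr* transcript was not analysed here. Defining markers of fast muscle, neural tissue, epidermis, erythroid cells, endothelium and myeloid cells were counted in every library, as whole embryos should give. The summed level of the neural list was 1296 to 1837 CPM (counts divided by library size, with TMM scaling) in mock control embryos and 1018 to 1147 CPM in crispants, without overlap, its part in the results was not tested, and of the other lists only the myeloid one, given below with the ligands, also separated the groups. The labels do not say whether the 3 pools of a group came from separate clutches, so that p-values measure the spread between these libraries only. In RNA from whole embryos, fewer cells of a type and less RNA per cell cannot be told apart.

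Of the 10 genes, *casp8*, *tnfrsf1a* and *cflara* were higher in every crispant library than in every mock control library, *casp3a* was lower in every crispant library, and the groups of the other 6 overlapped. Among all 20812 tested genes, 6.5% had groups that did not overlap with crispants higher, and 5.44% with crispants lower. Of the 4 genes named, *casp8* differed most, about 4-fold. The counts of all genes entered 1 quasi-likelihood model in edgeR, and its Benjamini-Hochberg adjusted p is given below with the log2 fold change and its standard error (SE). Calls required that this p did not exceed 0.05 and that the change was 2-fold or more, that is, 1 on the log2 scale. None of the 10 was called, and 0 of the 20812 genes, or 0%, were. An unadjusted p below 0.05 was found for 1142 of all tested genes (5.49%), and for *casp8*, *tnfrsf1a* and *cflara* among the 10. Crispants were higher for 627 of the 1142 genes (3.01% of all tested genes) and lower for 515 (2.47%). DESeq2, the tool of the study, called *casp8* and *tnfrsf1a* at the same threshold, both higher. It called 0.734% of the 22335 genes to which it gave an adjusted p, 0.537% as higher and 0.197% as lower. Limma-voom called none of the 10 and 0 genes in all, while with sample quality weights, which down-weight libraries that vary more, it called *casp8* and *tnfrsf1a* among 1.56% of all genes. *tnfa* and *fas* had too few counts to be tested, so that 8 of the 10 entered these comparisons, and their median log2 fold change was 0.95 against -0.04 over all tested genes. The 10 genes were chosen with earlier results of these data known, so that this median is not independent of those results. The wider pathway list described below had a median of 0.05 without the 10.

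**Figure D1:**
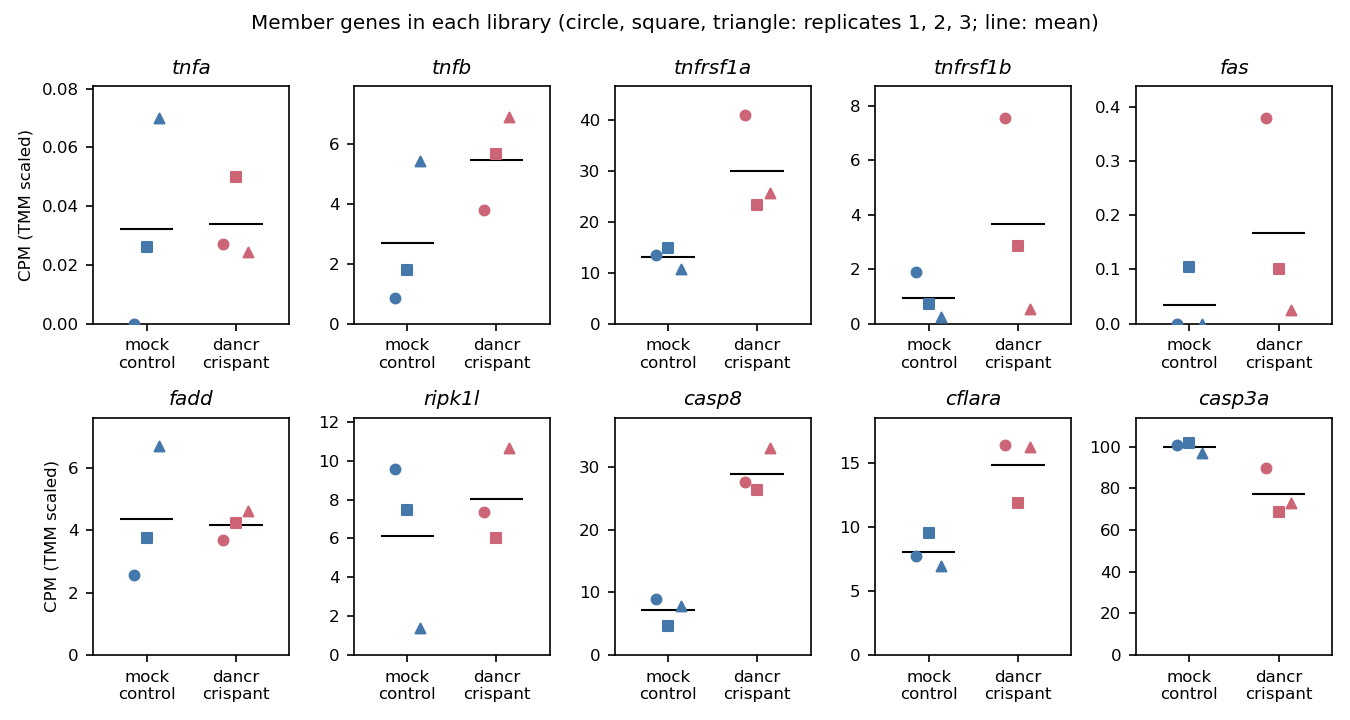
TMM-scaled CPM (linear axes from 0, each with its own range) of the 10 genes in the 3 mock control and 3 *dancr* crispant libraries, with circles, squares and triangles for replicates 1, 2 and 3 and a line at the group mean. The crispant points of *casp8* lie between 26.3 and 33.1 CPM, above the mock control points at 4.69 to 8.92 CPM.

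Among the ligands, *tnfa*, the gene for the inflammatory ligand TNF, was barely counted in either group. It lies on chromosome 19 of GRCz10, from 27435209 to 27439796 (ENSDARG00000009511), and had 0, 1 and 2 counts in the mock control libraries (replicates 1, 2 and 3) and 1, 2 and 1 in the crispants. A count of 0 in mock control replicate 1 allows up to 3 counts, or 0.0831 CPM, a limit for counting error only, so that a difference in *tnfa* was not detectable at this depth. Its paralogue *tnfb*, on chromosome 15 from 34841616 to 34844692 (ENSDARG00000013598), was the counted ligand of the pair. Mock control replicates 1, 2 and 3 held 31, 68 and 155 of its counts, or 0.859, 1.77 and 5.43 CPM, and the crispants 140, 227 and 285, or 3.8, 5.67 and 6.92 CPM. Mock control replicate 3 thus lay inside the range of the crispants, while the other mock control libraries lay below it. *tnfb* had a log2 fold change of 1.03 (SE 0.63, adjusted p = 0.999, edgeR). It was 2.06 when mock control replicate 3 was left out, again without a call (adjusted p = 0.159, edgeR), and 0.60 without mock control replicate 1. With mock control replicate 3 omitted, an alternative chosen after seeing the data, DESeq2 called *tnfb* (adjusted p = 3.92e-04), *casp8* and *tnfrsf1a* among 1.45% of all genes, and over all alternatives its adjusted p ran from 3.92e-04 to 1. The Fas ligand gene *faslg* had 1 count in crispant replicate 3 and 0 in the other 5 libraries.

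Macrophages and neutrophils are a known source of TNF ligands, so the myeloid markers were set beside *tnfb*. All 12 listed markers were counted, and their summed level was 71.4 to 139.6 CPM in mock control embryos and 49.3 to 53.8 CPM in crispants, without overlap. None of the 4 defining markers was at 0. *lyz*, the neutrophil lysozyme gene, had a log2 fold change of -2.14 and *mpx*, the neutrophil peroxidase gene, one of -1.05. DESeq2 called *lyz* and *npsn*, a further neutrophil gene, as lower. For the macrophage genes *mpeg1.1* and *mfap4* the groups overlapped, with log2 fold changes of -0.78 and -0.66. They also overlapped for the receptor genes *csf1ra* and *marco* of the same list, where the values were 0.20 and 0.11. Mock control replicate 3 was the lowest mock control library for *csf1ra* (1.19 CPM) and the highest for *marco* (1.72 CPM). Of the 12 markers 10 were below 0, and the median log2 fold change was -0.82 against -0.04 over all tested genes. Markers of other cell types were also mostly below 0, with all 8 erythroid genes (median -1.28) and all 8 fast muscle genes (median -0.67). The summed levels of both lists overlapped between the groups. For the erythroid list mock control replicate 3 stood out, at 7372 CPM against 2277 and 1544 CPM in mock control replicates 1 and 2. The endothelium list went the other way, with 4 of 6 genes above 0 (median 0.01). The level of *tnfb* and that of the myeloid markers thus differed in opposite directions between the group means. Within the mock control group, replicate 3 was the highest library for both, at 5.43 CPM for *tnfb* and 139.6 CPM for the summed markers. The summed markers in mock control replicates 1 and 2, at 100.5 and 71.4 CPM, still lay above all crispants. The part of *tnfb* and the myeloid markers in each other was not tested.

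Of the receptors, *tnfrsf1a*, the death domain receptor of TNF that is also called TNFR1, showed the clearest difference. It lies on the minus strand of chromosome 16, from 17154114 to 17164463 (ENSDARG00000018569). Mock control replicates 1, 2 and 3 had 487, 573 and 307 counts, or 13.5, 14.9 and 10.8 CPM, and the crispants 1509, 935 and 1058, or 40.95, 23.4 and 25.7 CPM. All 3 crispants lay above all mock control libraries, and crispant replicate 1 stood well above the other crispants. The level was 13.1 ± 2.13 CPM (SD, n = 3) for mock control embryos and 29.998 ± 9.55 CPM (SD, n = 3) for crispants. This is a 2.30-fold difference, with a log2 fold change of 1.20 (SE 0.29, adjusted p = 0.489, edgeR). Without crispant replicate 1 the log2 fold change was 0.91. DESeq2 placed the gene just inside the threshold (adjusted p = 0.0482), and over all alternatives the adjusted p ran from 0.0122 to 1.

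*tnfrsf1b*, the gene for the TNF receptor TNFR2, which has no death domain, was low and varied most among the tested genes of the set. It lies on chromosome 11, from 40166204 to 40193180 (ENSDARG00000070165), with 69, 27 and 7 counts in the mock control libraries (replicates 1, 2 and 3) and 279, 114 and 22 in the crispants. In CPM these were 1.91, 0.704 and 0.245 in mock control embryos and 7.57, 2.85 and 0.534 in crispants. Crispant replicate 3 fell below mock control replicates 1 and 2, and the groups overlapped. Its log2 fold change was 1.92, close to that of *casp8*, but its standard error was 0.97 (adjusted p = 0.984, edgeR). It was 0.82 without crispant replicate 1 and 2.91 without mock control replicate 1. The coefficient of variation was 90.3% among mock control libraries and 98.2% among crispants.

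*fas*, the gene for the Fas death receptor, was close to the limit of counting. On chromosome 17, from 23599900 to 23611796 (ENSDARG00000043586), it had 0, 4 and 0 counts in the mock control libraries (replicates 1, 2 and 3) and 14, 4 and 1 in the crispants. Crispant replicate 1 held 14 of the crispants' counts, the other 2 crispant libraries did not exceed mock control replicate 2, and a count of 0 allows up to 0.0831 CPM in mock control replicate 1 and 0.105 CPM in mock control replicate 3. No fold change is given for so few counts.

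The adaptor gene *fadd* and the kinase gene *ripk1l*, whose products link receptor and caspase, did not separate the groups. *fadd* encodes the adaptor that joins death receptors to Caspase-8, and lies on chromosome 7, from 54043638 to 54049775 (ENSDARG00000103021). Mock control embryos held 93, 144 and 192 of its counts, or 2.58, 3.75 and 6.72 CPM, and the crispants 136, 169 and 190, or 3.69, 4.23 and 4.61 CPM. The crispants lay within the mock control range. The log2 fold change was -0.06 (SE 0.41, adjusted p = 0.999, edgeR), and it was 0.41 without mock control replicate 3, so that leaving out this library turned its direction.

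*ripk1l* is annotated with a death domain, a protein kinase domain and a RIP homotypic interaction motif, the parts of mammalian RIPK1, and lies on chromosome 2 from 1033954 to 1050172 (ENSDARG00000006677). Its counts were 346, 286 and 39 in mock control embryos, or 9.59, 7.46 and 1.37 CPM, and 272, 241 and 439 in crispants, or 7.38, 6.02 and 10.7 CPM. Mock control replicate 3 was far below the other 5 libraries, and those 5 overlapped between the groups. The log2 fold change was 0.38 (SE 0.61, adjusted p = 0.999, edgeR), and without mock control replicate 3 it was -0.07. Of the genes with a role in necroptosis downstream of RIPK1, *ripk3l* was low, with 6 to 51 counts in mock control embryos and 22 to 45 in crispants and a log2 fold change of -0.06 (SE 0.71). *pgam5*, listed beside it, was not low, at 63.0 CPM in mock control embryos and 60.3 CPM in crispants (log2 fold change -0.06, SE 0.21). *mlkl* and *zbp1*, also listed there, were not matched to a row, so this arm is covered only in part.

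*casp8*, the gene for the initiator protease of the pathway, had the smallest p of the 10. It lies on the plus strand of chromosome 6, from 12811027 to 12821868 (ENSDARG00000058325), and the table annotates its product with a death effector domain and a caspase domain. There were 322, 180 and 222 counts in mock control replicates 1, 2 and 3, or 8.92, 4.69 and 7.77 CPM. In crispant replicates 1, 2 and 3 there were 1015, 1051 and 1362 counts, or 27.5, 26.3 and 33.1 CPM. The lowest crispant was well above the highest mock control library, and the crispants were close to each other. The level was 7.13 ± 2.19 CPM (SD, n = 3) for mock control embryos and 29.0 ± 3.60 CPM (SD, n = 3) for crispants, a 4.06-fold difference. The log2 fold change was 2.02 (SE 0.30), and the gene ranked 16 of 20812 by p (unadjusted p = 1.26e-04, adjusted p = 0.164, edgeR). It passed the threshold in edgeR without mock control replicate 3 (log2 fold change 2.11, adjusted p = 0.0465), where 20 genes or 0.0935% of those tested were called. It also passed with DESeq2 (adjusted p = 1.12e-06). The adjusted p over all alternatives ran from 1.89e-09 to 0.987, while the log2 fold change stayed between 1.79 and 2.38.

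*cflara*, the gene for the catalytically inactive Caspase-8 relative also called c-FLIP, carries the same domains and differed in the same direction by less. It lies on the minus strand of chromosome 11, from 30085775 to 30094247 (ENSDARG00000055966). Mock control embryos had 281, 366 and 198 counts, or 7.79, 9.54 and 6.93 CPM, and crispants 605, 476 and 671, or 16.4, 11.9 and 16.3 CPM. The groups did not overlap, at 8.09 ± 1.33 CPM (SD, n = 3) for mock control embryos and 14.9 ± 2.57 CPM (SD, n = 3) for crispants. The 1.84-fold difference corresponds to a log2 fold change of 0.88 (SE 0.27, adjusted p = 0.682, edgeR). No alternative gave a call, and the log2 fold change lay between 0.75 and 1.04.

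*casp3a*, 1 of the zebrafish genes for the executioner Caspase-3, was the most abundant gene of the set and the only tested one whose crispants lay entirely below the mock control libraries. On chromosome 1, from 16834405 to 16843370 (ENSDARG00000017905), its counts were 3643, 3908 and 2762 in mock control embryos, or 100.9, 101.9 and 96.7 CPM, and 3302, 2736 and 3009 in crispants, or 89.6, 68.4 and 73.0 CPM. The mock control libraries were within a few percent of each other, with a coefficient of variation of 2.76% against 14.5% in the crispants. The log2 fold change was -0.37 (SE 0.19, adjusted p = 0.978, edgeR), and it stayed between -0.50 and -0.27 over all alternatives.

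**Figure D2:**
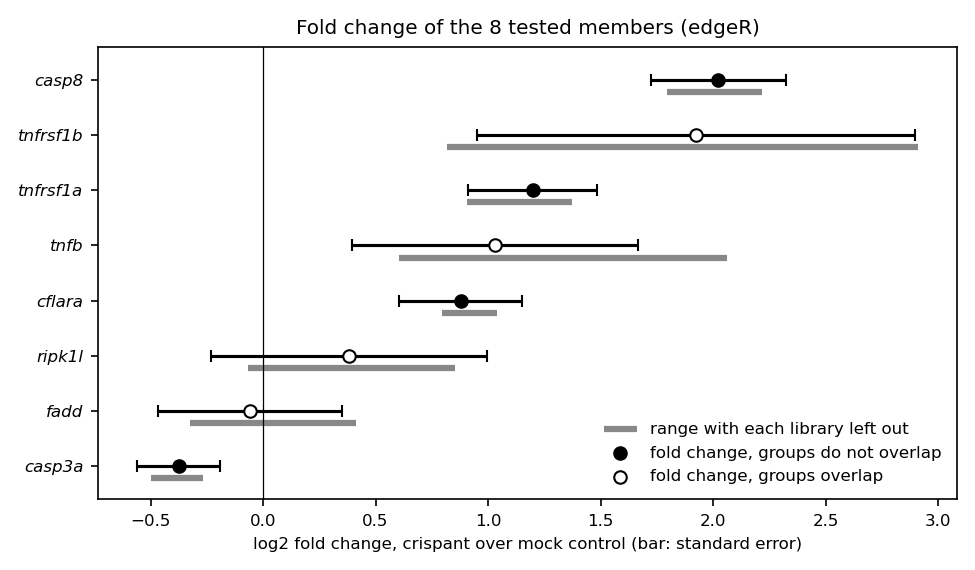
Log2 fold change (crispant over mock control, edgeR) of the 8 tested genes, with the standard error as a thin bar and the range with each library left out in turn as a grey bar; filled points are genes whose groups did not overlap. *casp8*, *tnfrsf1a* and *cflara* stayed above 0.79 with every library left out, and so did *tnfrsf1b*, whose groups overlapped, while the ranges of *ripk1l* and *fadd* crossed 0.

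Expression per gene length was compared with the authors' FPKM, which divides counts by gene length and a scaled library total. In mock control embryos the mean levels ran in the order *casp3a* (32.9 FPKM), *tnfrsf1a* (5.13), *fadd* (4.24), *cflara* (3.51), *casp8* (3.14), *ripk1l* (2.72), *tnfb* (1.49) and *tnfrsf1b* (0.181), with *tnfa* and *fas* at 0.0299 and 0.0215 FPKM. The ranges over mock control libraries separated *casp3a* from *tnfrsf1a* and *tnfb* from *tnfrsf1b*, and every other neighbouring pair of levels overlapped. In crispants *casp8* had rank 2, at 12.8 ± 1.53 FPKM (SD, n = 3), next to *tnfrsf1a* at 11.8 ± 3.79 FPKM (SD, n = 3), whereas in mock control embryos its rank was 5. *fadd* was at 4.24 ± 2.04 FPKM in mock control embryos and at 4.08 ± 0.435 FPKM in crispants (SD, n = 3 each). The order in mock control embryos was the same when levels were computed from TMM-scaled counts. Both measures divide the same counts by the same gene length and differ only in library scaling, so this is no independent check.

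**Figure D3:**
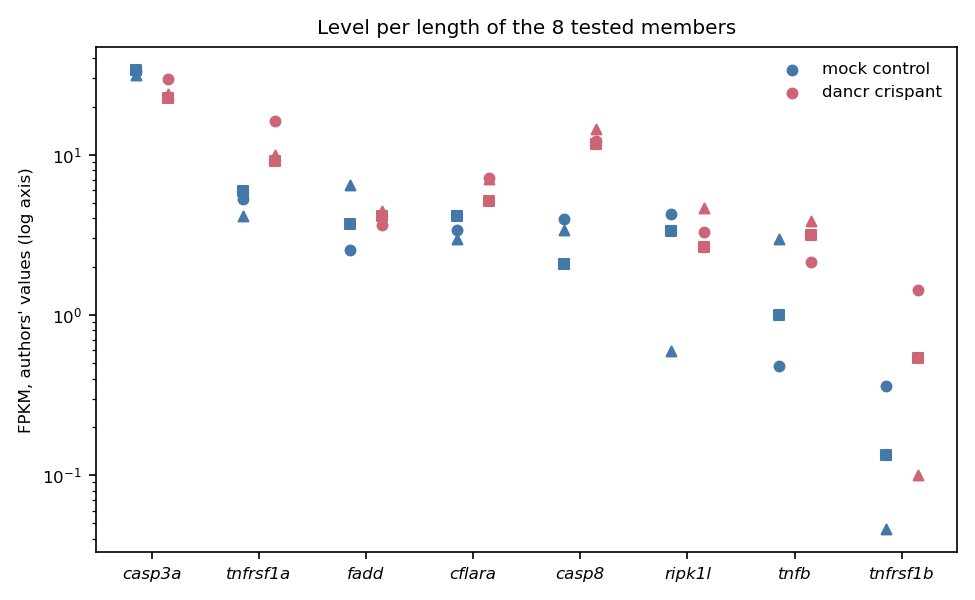
FPKM values of the authors (log axis) of the 8 tested genes in each library, ordered by their mean in mock control embryos, with circles, squares and triangles for replicates 1, 2 and 3. *casp3a* lies above all others in both groups, and *casp8* moves from 2.09 to 3.95 FPKM in mock control libraries to 11.6 to 14.5 FPKM in crispants.

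The ratio of 2 genes within a library does not depend on library scaling. In mock control replicates 1, 2 and 3 there were 1.15, 0.492 and 1.12 *casp8* counts for each count of its inhibitor *cflara*, and in the crispants 1.68, 2.21 and 2.03. The crispants were all above the mock control libraries, by 1.19 on the log2 scale or 2.28-fold (p = 0.1, exact permutation test, two-sided, again the lower limit). The ratio of *casp8* to *casp3a*, the initiator to the executioner, was 0.0884, 0.0461 and 0.0804 in mock control embryos and 0.307, 0.384 and 0.453 in crispants. This is a 5.47-fold difference (p = 0.1 in the same exact test). Every crispant library was already higher for *casp8* and lower for *casp3a*, so the groups had to separate in this ratio. For *cflara*, the gap between the groups in *casp8* (8.92 to 26.3 CPM) was larger, as a fold, than the full range of *cflara* (6.93 to 16.4 CPM). The groups therefore had to separate in that ratio too. Neither test could give another p, and both add nothing to the differences of the single genes. Mock control replicate 2, which had the fewest *casp8* counts, gave the lowest value of both ratios. Without it the difference for *cflara* was 0.79 on the log2 scale. These ratios compare counts, not protein.

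**Figure D4:**
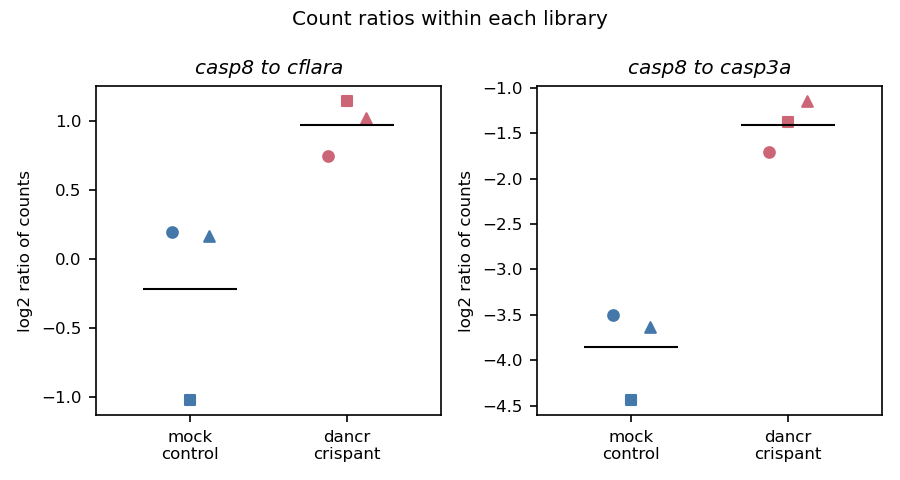
Log2 ratio of counts of *casp8* to *cflara* (left) and of *casp8* to *casp3a* (right) in each library, with circles, squares and triangles for replicates 1, 2 and 3 and a line at the group mean. In both panels the 3 crispant libraries lie above the 3 mock control libraries, with group means of 0.97 against -0.22 and of -1.41 against -3.86. In both panels this follows from the levels of each gene by itself.

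Other caspase genes were set beside *casp8* and *casp3a*. *casp8l1* lies 41076 bases from *casp8* on chromosome 6, with 1 annotated gene between them that was not examined. It was at 2.01 ± 0.378 CPM in mock control embryos and 2.01 ± 0.467 CPM in crispants (SD, n = 3 each). The log2 fold change of *casp8l1* was 0.00 (SE 0.39), against 2.02 for *casp8*. *casp8l2* on chromosome 9, a further *casp8*-like gene, had 27, 57 and 22 counts in mock control embryos and 209, 57 and 147 in crispants, so that crispant replicate 2 was within the mock control range. Its log2 fold change was 1.82 (SE 0.58, adjusted p = 0.70, edgeR). For *casp3b*, the second Caspase-3 gene, the log2 fold change was 0.28 (SE 0.40), and for *casp6* it was 0.02 (SE 0.34). *casp6l1*, 850 bases from *casp6* on chromosome 3, was low, with 11 to 16 counts in mock control embryos and 3 to 11 in crispants, and a log2 fold change of -1.04 (SE 0.66). *casp6l2*, on the other side of *casp6*, had 0 counts in all mock control libraries and 4, 1 and 4 in crispants. How reads that match several of these paralogues were counted is not given in the sources used here.

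A list of 75 genes of the pathway, the 10 included, gave the wider context. The table held 70 rows for the listed names, with 3 rows for *otulina* and 1 shared by *casp8l2* and the listed *casp10*, whereas *tnfsf10l2*, *mlkl*, *zbp1*, *casp6b*, *faim2b* and *rnf31* were not analysed here. Of the 70 rows 64 were tested. The median log2 fold change was 0.07, against -0.04 over all tested genes, with 37 genes above 0 and 27 below. Over all tested genes 9477 were above 0 and 11335 below. The groups did not overlap for 9 genes with crispants higher (14.1%) and for 4 with crispants lower. The shares over all tested genes were 6.5% higher and 5.44% lower. Without the 10 genes the median was 0.05 over 56 genes, with 6 not overlapping and higher and 3 not overlapping and lower, or 10.7% higher, where all tested genes gave 6.5%. In edgeR's test 0 of the 64 were called and 6 had an unadjusted p below 0.05, all with crispants higher. Over all tested genes 3.01% had such a p with crispants higher. DESeq2 called 2, *casp8* and *tnfrsf1a*, beside 0.734% of all genes given an adjusted p, and limma-voom called 0. Without the 10 genes, 3 of the 56 had an unadjusted p below 0.05 in edgeR's test, and DESeq2 called 0.

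Among the genes outside the 10, whose groups did not overlap and whose mean count reached 50, *rbck1* had the largest difference. It encodes HOIL-1, a subunit of the linear ubiquitin ligase that acts at the TNF receptor complex in mammals, and was at 6.48, 6.88 and 5.81 CPM in mock control embryos and at 13.5, 8.10 and 19.9 CPM in crispants. Its log2 fold change was 1.11 (SE 0.36, adjusted p = 0.71, edgeR). *tnfrsf21*, the gene for death receptor 6, was at 7.30 ± 0.803 CPM in mock control embryos and 12.3 ± 3.66 CPM in crispants (SD, n = 3 each), with a log2 fold change of 0.76 (SE 0.30). The adaptor gene *traf3* and the NF-kB kinase subunit gene *ikbkg* were higher in all crispants by 0.41 and 0.18 on the log2 scale. *map3k7*, the gene for the kinase TAK1 of TNF receptor signalling, was lower in all crispants, at 51.7 ± 3.63 CPM against 67.1 ± 7.81 CPM (SD, n = 3 each). *parp1*, whose product is a Caspase-3 substrate, was also lower, at 194.0 ± 28.3 CPM against 248.9 ± 6.31 CPM (SD, n = 3 each). Their log2 fold changes were -0.38 and -0.36, and none of these 6 genes passed the threshold in edgeR's test or in DESeq2. The other tested genes outside the set whose groups did not overlap, *traf1*, *traf5* and *casp6l1*, had fewer than 50 counts on average.

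**Figure D5:**
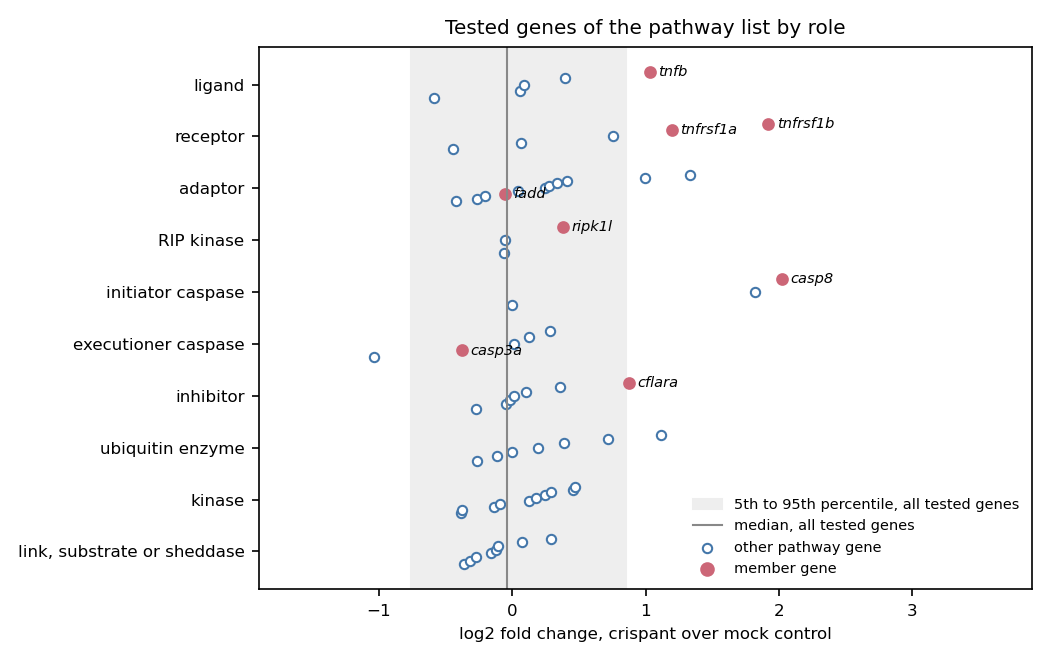
Log2 fold change (crispant over mock control, edgeR) of the 64 tested genes of the pathway list, 1 row per role, with the 10 described genes filled where tested; the grey band spans percentiles 5 to 95 of all tested genes, from -0.76 to 0.85, and the line is their median. *casp8*, *tnfrsf1b*, *tnfrsf1a*, *tnfb* and *cflara* lie to the right of the band, together with 4 other genes, *casp8l2*, *traf5*, *rbck1* and *traf1*, and *casp6l1* lies to its left.

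NF-kB feedback genes are induced by TNF receptor signalling in mammals. The 6 genes *nfkbiaa*, *nfkbiab*, *nfkbie*, *nfkb2*, *relb* and *tnip1* had a median log2 fold change of 0.07. With all libraries the groups overlapped for all 6, and 0 had an unadjusted p below 0.05 in edgeR's test. Their summed level was 161.3, 146.6 and 213.6 CPM in mock control replicates 1, 2 and 3, and 187.8, 171.2 and 206.3 CPM in the crispants. The groups overlapped through mock control replicate 3 alone, and the other mock control libraries lay below all crispants. The same held for *nfkbiaa*, the gene for an NF-kB inhibitor, at 3.27, 4.17 and 28.6 CPM in mock control embryos and 7.82, 10.6 and 17.5 CPM in crispants, and also for *nfkbiab*, *nfkb2* and *relb*. For *nfkbie* and *tnip1* the groups overlapped without that library too. Leaving it out was a choice made after seeing the data. How many of all tested genes separate the groups without it was not counted, so no difference is read from these values. *tnfaip3*, the gene for the NF-kB-induced inhibitor called TNFAIP3, had 194, 200 and 12 counts in mock control embryos and 157, 74 and 236 in crispants, and here mock control replicate 3 was the lowest library.

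The table annotates protein domains, and genes that share those of the 10 were set beside them, a grouping added after seeing the data. A caspase domain is given for 23 genes, a death effector domain for 8, a death domain for 30, the TNF family domain for 16 and the TNFR cysteine-rich region for 25. Outside the 10 genes, the median log2 fold change of the tested genes was 0.06 for the caspase domain (16 genes), 0.36 for the death effector domain (5), -0.10 for the death domain (25), 0.55 for the TNF family (10) and 0.12 for the TNFR region (13), against -0.04 over all tested genes. In the same order, 3, 0, 2, 1 and 1 of them had groups that did not overlap with crispants higher, or 18.8%, 0%, 8%, 10% and 7.69%, beside 6.5% of all tested genes. DESeq2 called 2 of these other genes, both higher and both named here after their values were seen. There was 1 among the 25 with a death domain and 1 among the 16 with a caspase domain. DESeq2 called 0.537% of all genes given an adjusted p as higher. *irak3*, whose mammalian product restrains Toll-like and interleukin-1 receptor signalling, had 32, 17 and 29 counts in mock control embryos and 115, 81 and 141 in crispants (log2 fold change 1.87, SE 0.47). CU467905.1, a caspase domain gene without a name, had 13, 27 and 15 counts in mock control embryos and 92, 67 and 116 in crispants (log2 fold change 2.13, SE 0.47). In edgeR's test neither passed (adjusted p = 0.542 and 0.479).

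Mock control replicate 3 bore unevenly on the 10 genes. On the log2 scale of CPM it differed from the mean of the other mock control libraries by -2.60 for *ripk1l*, -2.20 for *tnfrsf1b*, 2.00 for *tnfb* and 1.08 for *fadd*, but by 0.19 for *casp8*, -0.32 for *cflara*, -0.40 for *tnfrsf1a* and -0.07 for *casp3a*. In the 4 genes whose groups did not overlap, this library was close to the other mock control libraries. This follows in part from how the 4 were picked, since a gene in which this library lay among the crispants would have overlapped. Without it the groups of *tnfb* did not overlap, while those of *ripk1l*, *tnfrsf1b* and *fadd* still did. Leaving it out was chosen after seeing the data, and the share of all tested genes that separate without it was not counted. No difference in *tnfb* is therefore read from this.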

How the data were processed

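The authors deposited raw counts per gene for the 6 libraries, made by a Novogene pipeline in which HISAT2 mapped polyA selected, strand-specific reads to GRCz10/danRer10. The tool that counted them and its strand setting are not given in the sources used here. The deposited FPKM values divide each count by gene length and by a scaled library total, as was checked on the values. The table also holds gene length and, from the authors' own DESeq2 comparison, group means, fold changes and p-values, which were not used. All rows name a gene, and none of the 10 genes overlaps another annotated gene.

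Counts were scaled by TMM and tested with edgeR 4.0.16 (glmQLFTest, no covariate) in R 4.3.3 after filterByExpr with a minimum count of 10. Adjusted p-values are Benjamini-Hochberg values over all 20812 tested genes, and standard errors come from the fold change and the F statistic. Single values were compared with exact permutation tests. The alternatives were DESeq2 1.42.0, limma-voom (limma 3.58.1), DESeq2's size factors, other filters, the replicate number as a block and each library left out; limma-voom with sample quality weights and DESeq2 with mock control replicate 3 omitted were chosen after seeing the data. The median error of the log2 fold change was checked on simulated counts with 200 genes changed. How many genes each tool called there is not reported here.

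The members, gene lists and tests were chosen with earlier results of these data known. Named are the 10 genes, the other listed initiator and executioner caspase genes, of which 1 is not reported here, and up to 15 other pathway genes with a mean of at least 50 counts and groups that do not overlap; *faslg*, *ripk3l*, *tnfaip3* and the genes outside this rule were named after their values were seen. Entries of the lists were matched by name, older name or gene identifier. The *tnfb* to *tnfa* ratio that had been planned was not computed, because *tnfa* had 0 counts in 1 library.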

Additional observations from a re-analysis of the deposited data

How the results depend on the processing

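Among all genes, edgeR's call count of 0 became 2 with no filter on low counts, 164 with DESeq2, 324 with limma-voom and sample quality weights and 301 with DESeq2 with mock control replicate 3 omitted, and from 0 to 20 with each library left out in turn. Of the 10 genes, and likewise of the 64 tested pathway genes, 2 were called by DESeq2, 2 by limma-voom with sample quality weights and 3 by DESeq2 with mock control replicate 3 omitted, and from 0 to 1 with each library left out. The other alternatives gave 0 calls among them. *fadd*, at -0.06 in the comparison as reported, changed direction with limma-voom (0.076), with the replicate block (0.046), with sample quality weights (0.15) and with mock control replicate 3 omitted from DESeq2 (0.40), and with each library left out lay between -0.33 and 0.41. *ripk1l*, at 0.38, changed direction with sample quality weights (-0.019) and with mock control replicate 3 omitted from DESeq2 (-0.084), and lay between -0.068 and 0.85 with each library left out. The cause was not tested. The other 6 tested genes kept their direction under all 14 alternatives. With single libraries left out, *snora26* ranged from -3.08 to -1.73 and the median of the pathway list from 0.04 to 0.16. The *casp8* to *cflara* ratio lay between 0.79 and 1.40 and the *casp8* to *casp3a* ratio between 2.16 and 2.63 on the log2 scale. The labels do not say whether samples with the same replicate number share more than the number. Deviations from the group mean of libraries numbered 1, 2 and 3 correlated at 0.25, -0.09 and -0.18. Libraries with unlike numbers correlated between -0.47 and 0.36. Such deviations cancel within a group of 3, so that these values cannot settle whether libraries were paired. With the replicate block 0 genes were called. Depth limits *tnfa*, *fas*, *faslg* and *casp6l2*, for which counts of a few reads leave differences undetectable.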
